A study of Mus musculus with 12 samples.

Results

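The genes described here are 35 listed genes of respiratory complexes II, III and IV in mouse liver, of 18193 genes named on the array. They comprise 4 subunits of complex II, 9 of complex III, cytochrome c, 12 nuclear-encoded subunits of complex IV and 9 assembly factors of complex IV. Members were matched by gene symbol, and each was read by its brightest probe set, the group of short probes that gives 1 signal. Cross-hybridising probe sets (x_at) were used only where there was no other. A probe set was found for 34 of the 35, and Cox7b was not analysed here. Of these, 33 had a mean signal of at least 20 over the 12 arrays and were tested, among 11099 genes tested in all. The exception, Cox7a1, the form of its subunit known from heart and muscle, read 11.8 to 25.2 in MCD+HF+Met, 11.1 to 17.4 in MCD+HF and 10.6 to 23.8 in NC livers.

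The mice were of strain C57BL/6, aged 8 weeks at the start and fed for 8 weeks, and livers labelled as fasting were profiled on 1 Affymetrix array each. There were 4 mice per group: MCD+HF+Met, given a fat-rich diet without methionine and choline that was mixed with 0.1% metformin; MCD+HF, given that diet alone, which served as a dietary model of steatohepatitis; and NC, given normal chow. All 3 groups were of the same strain with no genetic change named, and sex was not given. Each array had been scaled by the authors to an average signal of 100, and differences below are in log2(signal + 10) from limma, with "rose" and "fell" kept for an adjusted p under 0.05.

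Complex II, succinate dehydrogenase, passes electrons of succinate to ubiquinone and is also an enzyme of the tricarboxylic acid cycle. Complex III passes them from ubiquinol to cytochrome c, and complex IV, cytochrome c oxidase, passes them to oxygen; complexes III and IV pump protons and hold subunits coded by the mitochondrial genome, which are not among the members. Complex IV also needs dedicated factors that make heme A, deliver copper and insert its core subunits.

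The stretch around the start of transcription was searched for letters bound by factors known to drive such genes: NRF1 (its palindromic motif), the ETS factor GABPA (CCGGAAG), YY1 (AAGATGGC) and the estrogen-related receptors (TCAAGGTCA), on both strands. Of the members, 26 had a RefSeq promoter (GRCm38.p6), from 250 bases before to 50 after the start. The ETS letters stood in 11 of them (42.3%), against 8.86% of all 32851 promoters of that length, and the NRF1 letters in 4 (15.4%), against 4.6%. The YY1 letters stood in 1 member promoter (3.85%, against 2.75% of all) and the receptor letters in 1 (3.85%, against 0.423%). The promoters compared were not limited to genes tested here, so these shares do not set the members against genes of like signal. Shown are Surf1, the member with the largest difference, Sdhd, whose promoter held matches of 3 kinds, and Cox19, which rose with metformin and held none. Capitals mark the matches on either strand: in Surf1 1 ETS match, and in Sdhd an NRF1, an ETS and a receptor match in that order.
Surf1 (chr2:26916481-26916780, minus strand): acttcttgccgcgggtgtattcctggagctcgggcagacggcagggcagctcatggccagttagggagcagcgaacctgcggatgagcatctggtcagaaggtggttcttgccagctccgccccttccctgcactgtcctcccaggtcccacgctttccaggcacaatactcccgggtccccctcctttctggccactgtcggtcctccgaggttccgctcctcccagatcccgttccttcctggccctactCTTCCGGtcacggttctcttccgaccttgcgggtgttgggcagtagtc
Sdhd (chr9:50603800-50604099, minus strand): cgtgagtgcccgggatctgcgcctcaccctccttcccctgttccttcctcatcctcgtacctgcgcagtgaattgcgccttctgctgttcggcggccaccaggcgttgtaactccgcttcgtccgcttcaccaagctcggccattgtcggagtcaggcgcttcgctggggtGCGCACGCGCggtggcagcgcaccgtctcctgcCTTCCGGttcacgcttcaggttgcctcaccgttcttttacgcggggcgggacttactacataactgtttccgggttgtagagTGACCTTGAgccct
Cox19 (chr5:139345117-139345416, minus strand): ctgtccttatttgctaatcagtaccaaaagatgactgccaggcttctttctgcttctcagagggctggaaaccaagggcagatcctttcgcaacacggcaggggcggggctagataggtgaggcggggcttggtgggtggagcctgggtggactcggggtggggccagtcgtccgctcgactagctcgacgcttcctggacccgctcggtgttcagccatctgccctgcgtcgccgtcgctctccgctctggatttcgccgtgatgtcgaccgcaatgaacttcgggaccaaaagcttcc
A match is a description of the letters only; no binding was measured.

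Arrays of 1 group correlated with each other at 0.971 to 0.988 over the probe sets tested. The summed signal of 5 measured hepatocyte markers was 36787 to 47612 in MCD+HF+Met, 33534 to 42689 in MCD+HF and 66384 to 80213 in NC livers. That of 11 macrophage markers was 3180 to 4759 in MCD+HF+Met, 7320 to 10689 in MCD+HF and 3667 to 4526 in NC livers. This sum mixes opposite moves. Of 10 macrophage markers tested, 7 rose and 1 (Clec4f, -1.36) fell in MCD+HF against NC livers. In MCD+HF+Met against NC livers 4 rose, with Gpnmb the most (3.38), and 2 fell, with Clec4f the most (-0.90). The summed signal of 6 stellate cell and myofibroblast markers was 2949 to 4165 in MCD+HF+Met, 3986 to 4728 in MCD+HF and 1272 to 1676 in NC livers. That of 4 measured cholangiocyte markers was 175 to 400 in MCD+HF+Met, 273 to 362 in MCD+HF and 22.8 to 67.6 in NC livers, and all 4 rose against NC in both groups given the diet. Alb (albumin), one of the hepatocyte markers, differed by -1.02 between MCD+HF and NC livers as scaled and by 0.00 after the quantile normalization described below. Alb is among the brightest probe sets of these arrays (mean 17085 in NC livers). Quantile normalization gives the brightest probe sets nearly the same value on every array, so the 0.00 does not bear on hepatocyte content. As scaled, 4 of the 5 hepatocyte markers fell with the diet, and Tat, the dimmest, did not pass the test (-0.36, adjusted p = 0.352, limma). Of all genes with a mean signal of 6000 or more, 94% fell as scaled, so the summed signal is no measure of hepatocyte content alone. Summed markers of T and NK cells, B cells, skeletal muscle and fat cells stayed below 100 on every array. The beta-actin 3′ to 5′ ratio, a sign of RNA integrity, was 1.73 ± 0.114 in MCD+HF+Met, 1.54 ± 0.0694 in MCD+HF and 1.73 ± 0.140 in NC livers (SD, n = 4 each). The part of cell makeup and RNA quality in the differences below was not tested, and in whole liver fewer cells of a type and less RNA per cell cannot be told apart.

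The first comparison asked what the MCD+HF diet did to these genes. With the signals as scaled by the authors, 24 of the 33 members fell in MCD+HF livers against NC livers, 1 rose and 8 did not pass the test, beside 20.8% of all genes called lower and 27.4% called higher. Quantile normalization, which gives every array the same distribution of signals, left 10 lower and 4 higher, beside 24% and 24.8% of all genes. The median difference of the members was -0.41 as scaled, where that of all genes was 0.05, and -0.12 after quantile normalization, where that of all genes was -0.01. Under both scalings Sdha, Sdhb, Sdhd, Uqcr11, Cyc1, Cox5a, Surf1, Sco1, Sco2 and Cox18 fell and Cox17 rose. Of the other 14 members that fell as scaled, 13 were not called after quantile normalization and Cox7a2 was called higher. As scaled, 14 of the called members had 20 other probe sets between them, of which 17 differed in the same direction and 10 of these were called. Without overlap between MCD+HF and NC livers, 24 members lay lower and 1 higher, beside 2230 and 2780 of all 11099 genes.

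The 13 members that lost the call had mean signals of 1279 to 9749, and the 10 called lower under both scalings had 69.1 to 5442, so the ranges overlapped. In the authors' scaling, all 3 members with a mean signal of 6000 or more fell (Uqcrb, Cox6a1 and Cox6b1), with a median of -0.68, and so did 94% of the 84 genes at that level, with a median of -0.93. Between 3000 and 6000, 5 of 5 members fell (median -0.41), beside 61.7% of 167 genes (median -0.41). Between 1000 and 3000, 12 of 15 members fell (median -0.39), beside 44.9% of 692 genes (median -0.19), and between 100 and 1000, 3 of 8 members fell (median -0.11), beside 22.3% of 5319 genes (median 0.04). At and above 6000 the median fall of the members was smaller than that of all genes, and between 3000 and 6000 the medians were equal. After quantile normalization the 8 members above 3000 had medians of 0.03 and 0.01 in the upper and lower of these ranges. The brightest signal of an array was 11539 to 13694 in MCD+HF+Met, 9467 to 11830 in MCD+HF and 19413 to 23472 in NC livers. Which scaling lies nearer to the RNA content was not tested. Values near 0 in the brightest members after quantile normalization cannot decide it, because that step brings the brightest probe sets close together on all arrays.

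**Figure D1:**
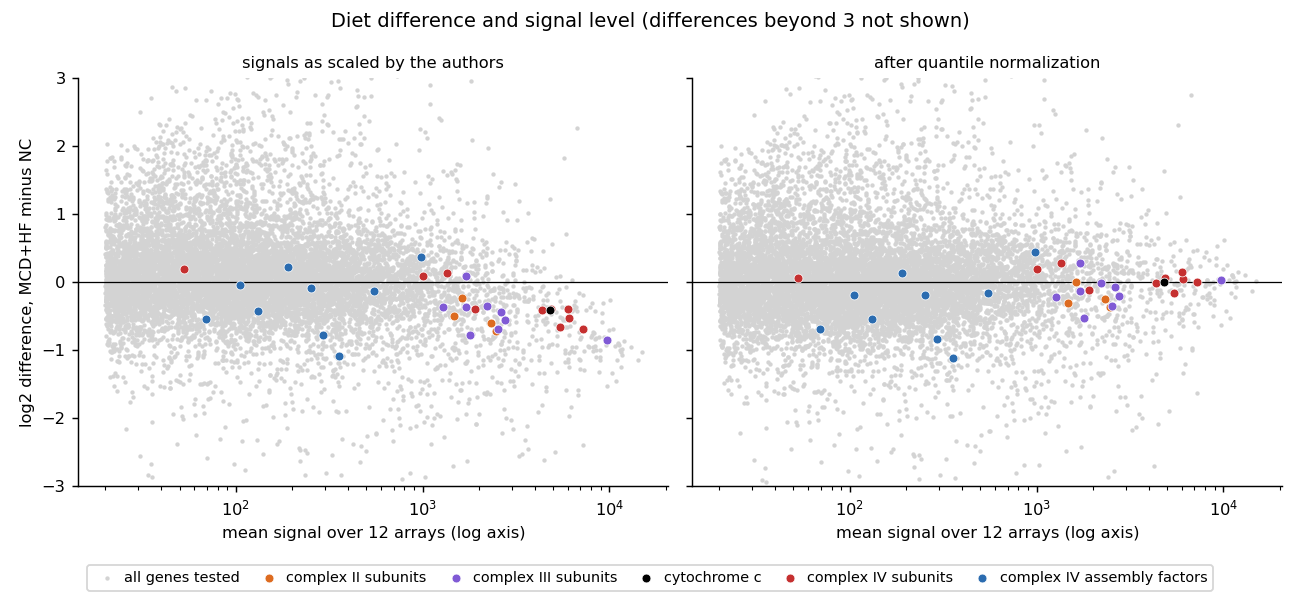
Log2 difference of MCD+HF minus NC (vertical axis) against the mean signal over 12 arrays (horizontal, log axis) for all 11099 genes tested (grey) and the 33 members by class (colours), with the signals as scaled by the authors on the left and after quantile normalization on the right. On the left the cloud of all genes bends down above a signal of 1000 and the bright members lie within it; on the right the bend is gone and Uqcrb, the brightest member probe set, sits at 0.03 instead of -0.85.

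All 4 subunits of complex II fell in MCD+HF livers, with a median of -0.54; after quantile normalization 3 of the 4 were called lower, with a median of -0.27. Sdhb, the iron-sulfur subunit, read 1929, 2116, 1780 and 2487 in MCD+HF+Met, 1719, 1882, 2061 and 2346 in MCD+HF and 3022, 3442, 3015 and 3735 in NC livers. Every NC liver lay above every liver of the other groups, and MCD+HF livers averaged 60.6% of the NC mean (log2 difference -0.72, SE 0.12, adjusted p = 1.4e-04, limma; -0.37 after quantile normalization). Sdha, the flavoprotein that oxidises succinate, read 2180, 2075, 1935 and 2258 in MCD+HF+Met, 1636, 1878, 2072 and 2177 in MCD+HF and 2874, 3178, 2700 and 2993 in NC livers. Again no NC liver overlapped with the others (-0.60 for the diet, SE 0.10, and -0.25 after quantile normalization), and of the other probe sets of Sdha, one gave -0.63 and a dim one 0.11 (adjusted p = 0.724, limma). Sdhd, a membrane anchor, read 1340, 1430, 1330 and 1538 in MCD+HF+Met, 1043, 1180, 1338 and 1508 in MCD+HF and 1743, 1857, 1658 and 1802 in NC livers. The diet difference of Sdhd was -0.49 (SE 0.10), and -0.30 after quantile normalization. Sdhc, the other anchor, read 1425, 1446, 1520 and 1510 in MCD+HF+Met, 1513, 1536, 1634 and 1594 in MCD+HF and 1747, 1955, 1828 and 1833 in NC livers. Its fall was the smallest of the class (-0.23, SE 0.07, adjusted p = 0.0192, limma); it was 0.00 after quantile normalization and -0.06 at its next brightest probe set (adjusted p = 0.781), and the call was lost without MCD+HF mouse 1 (0.0502), without MCD+HF mouse 2 (0.0518) or without NC mouse 2 (0.0644).

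**Figure D2:**
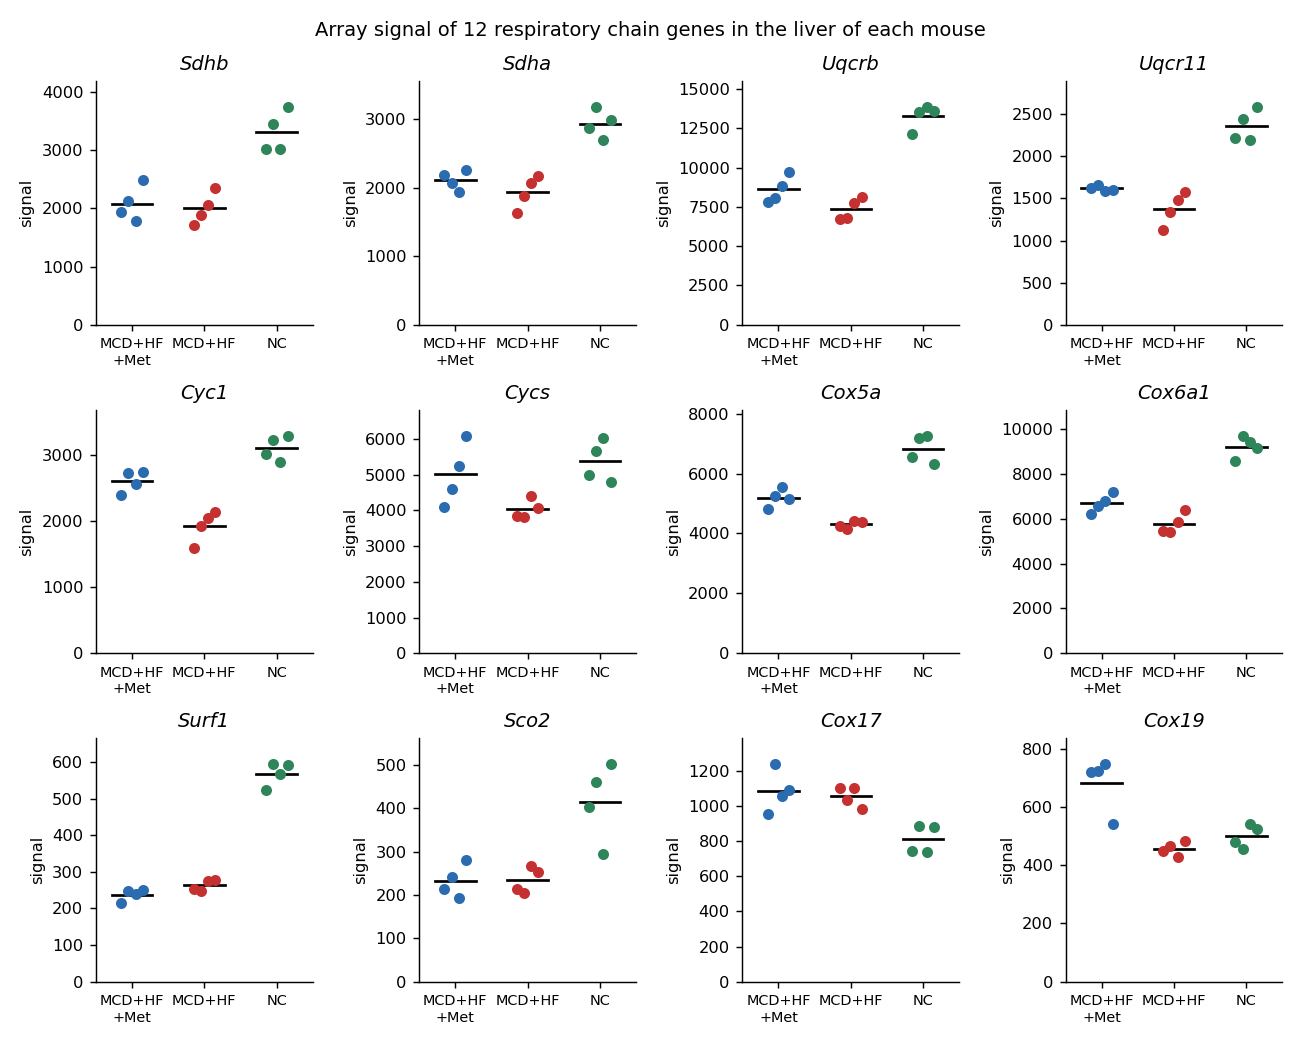
Array signal (vertical axes, each starting at 0, as scaled by the authors) of 12 members in each mouse, with MCD+HF+Met left, MCD+HF in the middle and NC right; points are single mice and bars group means. Surf1 lies at 214 to 279 in all mice given the diet and at 522 to 594 in NC livers, while Cox19 stands higher in MCD+HF+Met than in MCD+HF livers. The diet differences of Uqcrb, Cycs and Cox6a1 were 0.03, 0.01 and 0.00 after quantile normalization.

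Of the 9 subunits of complex III, 8 fell as scaled (median -0.44) and Uqcr10 did not pass the test; after quantile normalization 2 were called lower, Uqcr11 and Cyc1, and Uqcr10 was called higher (median -0.13). Uqcr11, a small subunit of the complex, read 1627, 1658, 1587 and 1594 in MCD+HF+Met, 1128, 1335, 1481 and 1572 in MCD+HF and 2219, 2437, 2196 and 2582 in NC livers. The 3 groups did not overlap, MCD+HF livers were the lowest, and the diet difference was -0.78 (SE 0.10, adjusted p = 1.3e-05, limma), or -0.52 after quantile normalization. Cyc1, cytochrome c1, which hands electrons to cytochrome c, read 2403, 2736, 2562 and 2746 in MCD+HF+Met, 1600, 1925, 2048 and 2138 in MCD+HF and 3013, 3237, 2899 and 3298 in NC livers. Its 3 groups did not overlap either, and the diet difference was -0.69 (SE 0.09), or -0.35 after quantile normalization. Uqcrb, which lies near the ubiquinone site, read 7827, 8047, 8834 and 9720 in MCD+HF+Met, 6732, 6820, 7759 and 8155 in MCD+HF and 12132, 13503, 13838 and 13617 in NC livers. As scaled this was the largest fall among subunits (-0.85, SE 0.09, adjusted p = 1.7e-06, limma). After quantile normalization, which draws probe sets this bright together, the difference was 0.03. A second, less bright probe set of Uqcrb gave -0.45 as scaled. Uqcrq, another small subunit, read 2601, 2882, 2457 and 2597 in MCD+HF+Met, 2013, 2195, 2402 and 2574 in MCD+HF and 3162, 3199, 3258 and 3924 in NC livers, a difference of -0.56 (SE 0.10), and -0.20 (adjusted p = 0.0695, limma) after quantile normalization.

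Uqcrfs1, the Rieske iron-sulfur protein, had the smallest largest difference of complex III. It read 2047, 2222, 2093 and 2153 in MCD+HF+Met, 1670, 1963, 2125 and 2225 in MCD+HF and 2417, 2728, 2349 and 2633 in NC livers, -0.35 for the diet as scaled and -0.01 after quantile normalization. The core proteins Uqcrc1 and Uqcrc2 and the hinge protein Uqcrh differed by -0.37, -0.37 and -0.44 as scaled, and none of these was called after quantile normalization; the second probe set of Uqcrc2 gave -0.13 (adjusted p = 0.300, limma) as scaled and that of Uqcrh -0.53. Without MCD+HF mouse 1, Uqcrc1 was not called as scaled (adjusted p = 0.0562, limma). Uqcr10, the subunit not called as scaled, differed by 0.10 for the diet with a 95% interval from -0.17 to 0.36, whereas its second probe set fell (-0.40, adjusted p = 0.0113, limma). Cycs, the cytochrome c of body tissues, read 4096, 4605, 5236 and 6088 in MCD+HF+Met, 3849, 3799, 4396 and 4065 in MCD+HF and 4996, 5654, 6022 and 4801 in NC livers. As scaled it fell (-0.41, SE 0.11, adjusted p = 0.00803, limma), with 0.01 after quantile normalization and -0.24 and -0.03 at its less bright probe sets, neither of which was called.

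**Figure D3:**
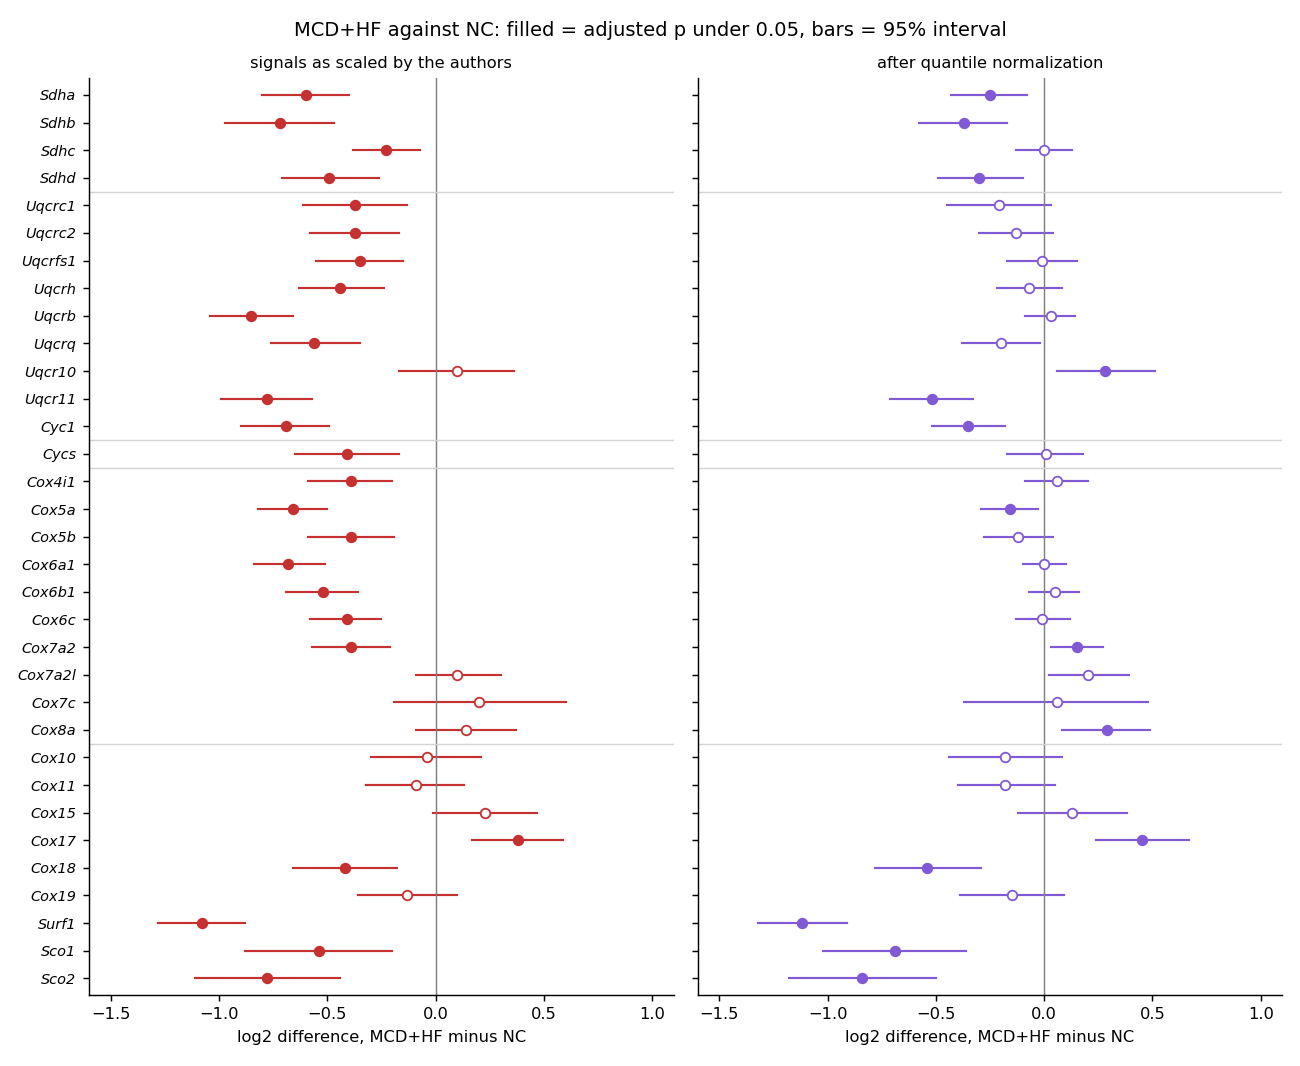
Log2 difference of MCD+HF minus NC (horizontal axes) for the 33 members tested, with lines between complex II, complex III, cytochrome c, complex IV subunits and complex IV assembly factors from top to bottom; points are estimates, filled where the adjusted p was under 0.05, and bars are 95% intervals. With the signals as scaled by the authors (left) 24 members fell and Cox17 rose; after quantile normalization (right) 10 were lower and 4 higher, and Surf1 kept the largest difference on both sides (-1.08 and -1.12).

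Of the 10 complex IV subunits tested, 7 fell as scaled, with a median of -0.39; after quantile normalization the median was 0.05, Cox5a alone was called lower, and Cox7a2 and Cox8a were called higher. Cox5a read 4808, 5262, 5558 and 5139 in MCD+HF+Met, 4252, 4166, 4411 and 4388 in MCD+HF and 6567, 7173, 7269 and 6307 in NC livers. The 3 groups did not overlap, and the diet difference was -0.66 (SE 0.07, adjusted p = 3.7e-06, limma), or -0.16 (adjusted p = 0.0460) after quantile normalization. The other probe sets of Cox5a gave -0.49 and -0.48 as scaled. Cox6a1, the form of its subunit known from liver, read 6208, 6561, 6796 and 7204 in MCD+HF+Met, 5439, 5418, 5842 and 6379 in MCD+HF and 8556, 9707, 9428 and 9149 in NC livers. Its fall as scaled (-0.68, SE 0.08) was 0.00 after quantile normalization, and its second probe set gave -0.20 as scaled (adjusted p = 0.0773, limma), which was not called. Cox6b1, which faces the intermembrane space, read 5491, 5760, 5930 and 6408 in MCD+HF+Met, 4649, 4925, 5145 and 5604 in MCD+HF and 6925, 7530, 7248 and 7453 in NC livers, -0.52 as scaled and 0.05 after quantile normalization. Cox6c, a small membrane subunit, read 3989, 4128, 3967 and 4432 in MCD+HF+Met, 3521, 3744, 3927 and 4139 in MCD+HF and 5029, 5158, 4818 and 5431 in NC livers, -0.41 as scaled and -0.01 after quantile normalization. The second probe set of Cox6c gave 0.05 as scaled, and that of Cox6b1 -0.30. In the brightest probe sets of all 4 no NC liver overlapped with an MCD+HF liver.

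Cox4i1, Cox5b and Cox7a2 each differed by -0.39 as scaled. After quantile normalization Cox4i1 and Cox5b were at 0.06 and -0.12 and Cox7a2 was called higher at 0.15. Brighter, cross-hybridising (x_at) probe sets of Cox5b gave -0.55, -0.61 and -0.46 as scaled, and a dim one of another kind -0.21, not called. Those x_at probe sets were also called lower in MCD+HF+Met against NC livers (-0.43, -0.38 and -0.37). For the diet, the second probe set of Cox7a2 gave -0.12 as scaled (adjusted p = 0.398, limma). Cox7a2l, named for its likeness to Cox7a2, read 945, 1160, 1086 and 926 in MCD+HF+Met, 959, 1005, 1080 and 1113 in MCD+HF and 966, 931, 977 and 990 in NC livers. These groups overlapped, and the 95% interval of the diet difference ran from -0.09 to 0.30. Cox8a and Cox7c also did not pass the test as scaled, at 0.14 and 0.20, and the probe set of Cox7c was dim, with a mean signal of 53.0. Its 95% interval for the diet ran from -0.19 to 0.60.

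The assembly factors held the largest difference. As scaled, Surf1, Sco2, Sco1 and Cox18 fell, Cox17 rose and 4 of the 9 did not pass the test, and after quantile normalization the same 5 were called in the same directions. Surf1, which acts early in building complex IV, read 214, 248, 239 and 251 in MCD+HF+Met, 252, 247, 276 and 279 in MCD+HF and 522, 594, 566 and 592 in NC livers. MCD+HF livers averaged 46.4% of the NC mean, with no overlap, and the difference of -1.08 (SE 0.09, adjusted p = 2.0e-07, limma) was -1.12 after quantile normalization. Sco2, a mitochondrial copper protein needed for the Cox2 subunit, read 213, 242, 193 and 280 in MCD+HF+Met, 214, 204, 266 and 253 in MCD+HF and 403, 460, 294 and 502 in NC livers. NC mouse 3 was the lowest of its group and still above all other livers (-0.78, SE 0.16, adjusted p = 8.7e-04, limma; -0.84 after quantile normalization). Sco1, the related copper protein, read 86.7, 88.0, 55.8 and 63.8 in MCD+HF+Met, 49.6, 56.3, 44.2 and 59.9 in MCD+HF and 100, 77.2, 68.6 and 78.2 in NC livers. MCD+HF livers were below all NC livers (-0.54, SE 0.16; -0.69 after quantile normalization), whereas MCD+HF+Met livers overlapped with both other groups.

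Cox18, which helps insert the Cox2 subunit into the membrane, fell by 0.42 on the log2 scale (SE 0.11), with a difference of -0.54 after quantile normalization. Cox17, the copper chaperone that supplies Sco1 and Cox11, read 952, 1237, 1058 and 1088 in MCD+HF+Met, 1100, 1032, 1103 and 982 in MCD+HF and 742, 887, 736 and 881 in NC livers. It was the member that rose, to 130% of the NC mean (0.38, SE 0.10, adjusted p = 0.00614, limma; 0.45 after quantile normalization). Cox11, which places copper in the Cox1 subunit, read 274, 259, 225 and 307 in MCD+HF+Met, 225, 244, 234 and 256 in MCD+HF and 247, 279, 252 and 249 in NC livers, with overlap throughout and a 95% interval for the diet of -0.32 to 0.13. Cox10 and Cox15, the enzymes of heme A synthesis, differed by -0.04 and 0.23, and Cox19 by -0.13, none past the test. Surf1, Sco1, Sco2, Cox17, Cox18 and Cox19 each had a single probe set that passed the filter, and those of Sco2 and Cox17 are of a kind that may match several transcripts.

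The second comparison asked what metformin changed on the MCD+HF diet, and shares the MCD+HF arrays with the first. Cox19 and Cyc1 rose, no member fell and 31 of the 33 did not pass the test, beside 1.63% of all genes called higher and 2.34% called lower. The median of the members was 0.15, where that of all genes was 0.01. Of the 33 estimates 27 lay above 0, beside 5723 of those of all 11099 genes. Among the 943 genes with a mean signal of at least 1000, the median was 0.09. After quantile normalization the same 2 members were called and 25 estimates lay above 0. The median of the members was then 0.09, where that of all genes was 0.03. Cox19, a twin-cysteine protein of the intermembrane space that takes part in copper supply, read 720, 723, 747 and 542 in MCD+HF+Met, 449, 466, 428 and 482 in MCD+HF and 479, 457, 543 and 524 in NC livers. All MCD+HF+Met livers lay above all MCD+HF livers, though mouse 4 stood well below the other MCD+HF+Met livers and within the range of NC. The mean was 150% of that in MCD+HF livers (0.56, SE 0.11, adjusted p = 0.0107, limma; 0.55 after quantile normalization), and the call held without each mouse in turn.

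Cyc1, with the values given above, reached 135% of the MCD+HF mean (0.44, SE 0.09, adjusted p = 0.0193, limma, and 0.40 after quantile normalization). As scaled it stayed below all NC livers, but its difference from NC was 0.05 after quantile normalization (adjusted p = 0.641, limma). The call against MCD+HF was lost without MCD+HF mouse 2 (0.0598) or MCD+HF+Met mouse 2 (0.0664), with the difference still at 0.44 and 0.42. Cox5a and Uqcr11 also showed no overlap between MCD+HF+Met and MCD+HF livers, at 0.27 (adjusted p = 0.0615, limma) and 0.24 (0.204), but did not pass the test. In all, 4 of the 33 members lay higher in MCD+HF+Met without overlap, beside 713 of all 11099 genes. Under the stricter filter, with fewer probe sets to adjust over, Cox5a was called as well, which made 3 members higher. Sco1 had an estimate of 0.41 with a 95% interval of 0.07 to 0.74 and an adjusted p of 0.174 (limma). Uqcr10 was at 0.31 (adjusted p = 0.192, limma) and not called, but its second, less bright probe set was called higher with metformin (0.50, adjusted p = 0.0297, limma). The members of complex II were at -0.09 to 0.16. Surf1 and Sco2 were at -0.14 (95% interval -0.34 to 0.06) and -0.02 (-0.35 to 0.32), and both upper bounds lay below the size of their diet difference.

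**Figure D4:**
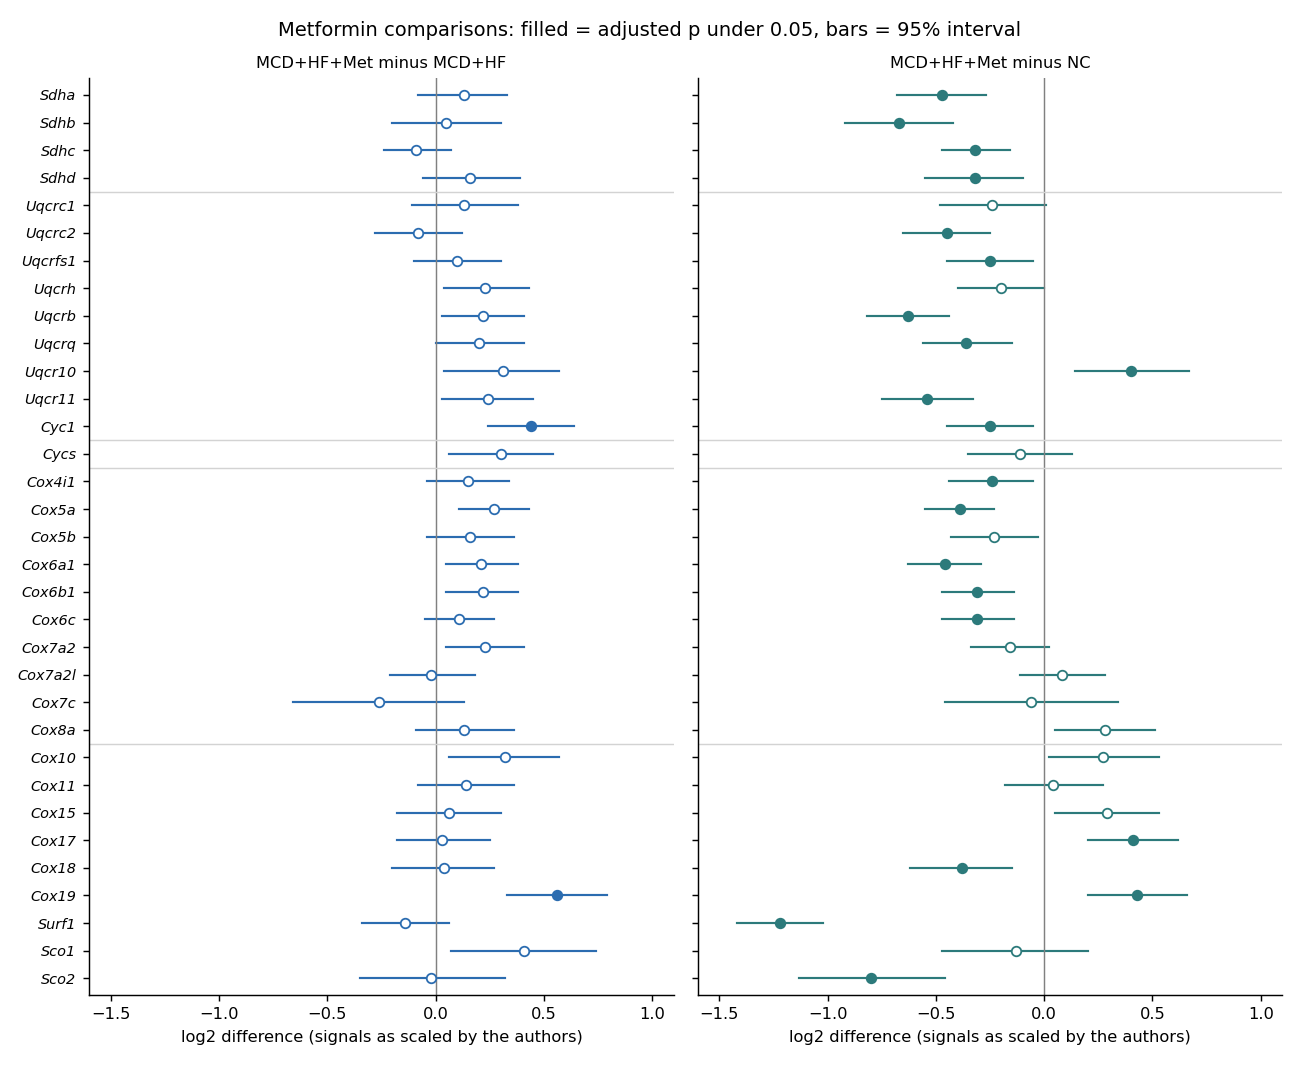
Log2 differences (horizontal axes, signals as scaled by the authors) of MCD+HF+Met minus MCD+HF (left) and MCD+HF+Met minus NC (right) for the 33 members tested, in the same order of classes with lines between them; filled points had an adjusted p under 0.05 and bars are 95% intervals. On the left only Cyc1 and Cox19 are filled, and on the right 18 members are lower and 3 higher, which became 6 lower and 7 higher after quantile normalization, beside 19.6% and 24.1% of all genes.

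The third comparison set metformin-treated mice on the diet against normal chow, and shares the NC arrays with the first comparison and the MCD+HF+Met arrays with the second. As scaled, 18 members fell in MCD+HF+Met livers, 3 rose and 12 did not pass the test, beside 18.6% of all genes called lower and 25.6% called higher; after quantile normalization 6 were lower and 7 higher, beside 19.6% and 24.1% of all genes. The median of the members was -0.25 as scaled and 0.02 after quantile normalization, where that of all genes was 0.06 and 0.03. As scaled, the share of all genes called lower grew with signal here too. In the range from 6000 up, 3 of 3 members fell (median -0.46), beside 85.7% of all genes there (median -0.75). From 3000 to 6000 it was 3 of 5 (-0.24), beside 54.5% (-0.32). Members from 1000 to 3000 gave 9 of 15 (-0.25), beside 40.8% (-0.16), and those from 100 to 1000 gave 3 of 8 (0.16), beside 19.1% (0.07). Lower under both scalings were Surf1, Sco2, Cox18, Sdhb, Uqcr11 and Uqcrc2, and higher under both were Cox17, Cox19 and Uqcr10. Surf1 was at 41.9% of the NC mean (-1.22, SE 0.09, adjusted p = 8.1e-08, limma; -1.25 after quantile normalization), and Sco2 at 56.0% (-0.80, SE 0.16; -0.84). Sdhb was at -0.67 (-0.39 after quantile normalization), Uqcr11 at -0.54 (-0.32), Uqcrc2 at -0.45 (-0.27) and Cox18 at -0.38 (-0.46). The second probe set of Uqcrc2 gave -0.22 as scaled and was not called (adjusted p = 0.0902, limma).

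Between MCD+HF+Met and NC livers 2 members lay higher and 19 lower without overlap, beside 2478 and 1923 of all 11099 genes. Cox17 stood at 134% of the NC mean in MCD+HF+Met livers (0.41, SE 0.10) with no overlap. Cox19 stood at 136% (0.43, SE 0.11), with MCD+HF+Met mouse 4 inside the NC range. Uqcr10 read 1918, 1894, 1912 and 2204 in MCD+HF+Met, 1256, 1560, 1694 and 1964 in MCD+HF and 1297, 1504, 1454 and 1759 in NC livers. It rose against NC without overlap (0.40, SE 0.12, adjusted p = 0.0177, limma), but its other probe sets gave 0.10 and 0.21, not called, and the call was lost without NC mouse 1 (0.0615). Cox6b1 changed side with the scaling, being called lower as scaled (-0.31) and higher after quantile normalization (0.15). Cyc1, Uqcrfs1 and Cox4i1, at -0.25, -0.25 and -0.24 as scaled, were called by a narrow margin (adjusted p = 0.0450, 0.0458 and 0.0424, limma) and lost the call without 6 (0.0570 to 0.121), 7 (0.0573 to 0.127) and 5 (0.0559 to 0.118) of the 8 mice left out in turn. Sdhd, at -0.32, lost it without MCD+HF+Met mouse 1 (0.0563), MCD+HF+Met mouse 3 (0.0582) or NC mouse 2 (0.0614).

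Averaged over their members as the mean log2 difference from NC, complex III subunits were at -0.33 to -0.22 in MCD+HF+Met, -0.70 to -0.33 in MCD+HF and -0.08 to 0.10 in NC livers as scaled. Complex II subunits were at -0.54 to -0.31 in MCD+HF+Met, -0.70 to -0.34 in MCD+HF and -0.09 to 0.09 in NC livers. Complex IV subunits were at -0.26 to -0.10 in MCD+HF+Met, -0.44 to -0.17 in MCD+HF and -0.11 to 0.06 in NC livers. In all 3 complexes the diet groups lay below NC on this scale, except that 1 MCD+HF+Met liver reached the range of NC for complex IV, and the spread among MCD+HF livers was the widest of the groups. These means hold for the authors' scaling, since most subunits of complexes III and IV were not lower after quantile normalization. Of 9 complex III subunits, 2 were then called lower and 1 higher with the diet, beside 24% and 24.8% of all genes. In MCD+HF+Met against NC livers it was also 2 and 1, beside 19.6% and 24.1%. The medians of these comparisons were -0.13 and 0.02 in complex III, 0.05 and 0.11 in complex IV, and -0.27 and -0.18 in complex II.

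**Figure D5:**
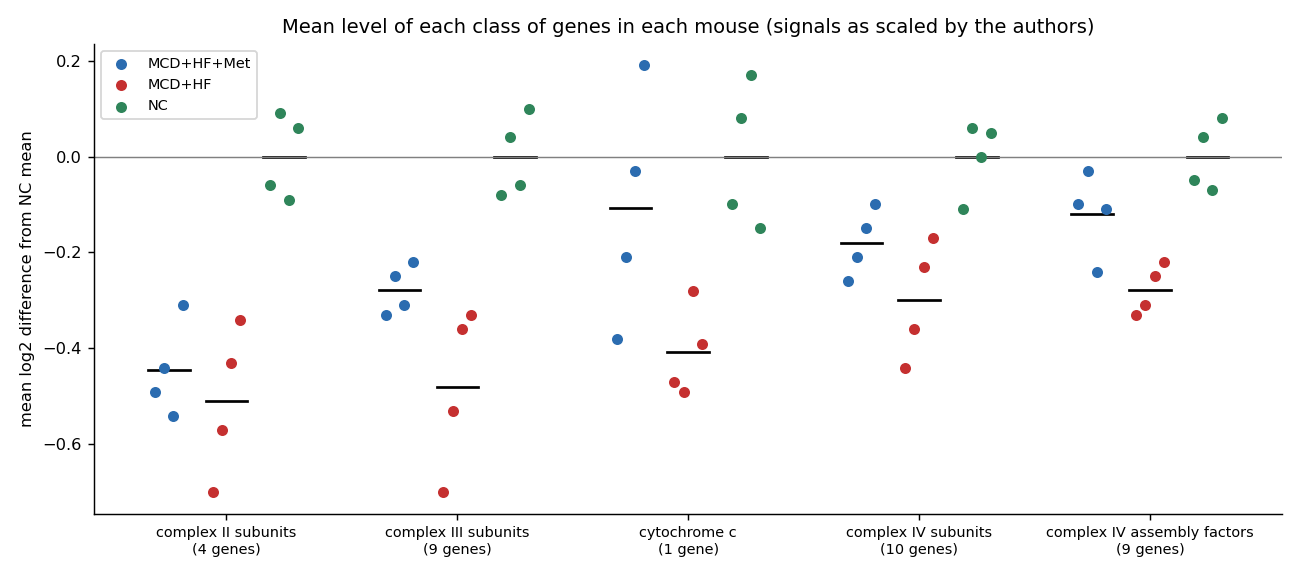
Mean log2 difference from the NC mean (vertical axis, signals as scaled by the authors) over the members of each class in each mouse, with MCD+HF+Met left, MCD+HF in the middle and NC right; points are single mice and bars group means. MCD+HF livers reach down to -0.70 in complexes II and III, and no MCD+HF liver overlaps with NC in any class. After quantile normalization the median diet difference was -0.27 in complex II, -0.13 in complex III and 0.05 for complex IV subunits.

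Other genes of the respiratory chain were counted from lists set for this purpose. Of 33 genes tested that were listed by their complex I (Nduf) names, 24 fell and 1 rose with the diet (median -0.43). After quantile normalization 15 fell and 2 rose (median -0.20). The list was set by name only and holds Ndufa4 (-0.40 as scaled), whose place in complex I was not examined. Of 16 ATP synthase genes, 13 fell and 1 rose (median -0.55), and 7 and 1 after quantile normalization (median -0.17); the riser, Atpif1, the inhibitor of the enzyme's reverse action, was at 1.61 and 1.57. The 13 tricarboxylic acid cycle genes beside complex II were mixed, with 4 lower and 6 higher as scaled, and Mdh2, the mitochondrial malate dehydrogenase, averaged 3994 in MCD+HF and 1730 in NC livers. Of 20 further assembly factors of complexes II to IV, 10 fell and 3 rose as scaled, and 13 fell and 3 rose after quantile normalization. Among these Uqcc3, a complex III assembly factor, fell by 0.77 on the log2 scale and Coa3, a complex IV assembly factor, rose by 0.40. With metformin, Uqcc2, a complex III assembly factor, rose by 0.40 (adjusted p = 0.0306, limma) and Ndufs8, a complex I subunit, by 0.54 (0.0396).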

How the data were processed

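Liver RNA of 12 C57BL/6 mice (3 groups of 4, taken from the sample labels) was hybridised to Affymetrix Mouse Genome arrays. With GCOS, the authors summarised every probe set as a signal intensity and scaled each array to an average of 100; the deposited table holds these linear intensities for 45101 probe sets, including 64 controls. Nothing states that the mice of a group were housed or handled separately, so p-values measure the spread between these mice. Here, log2(signal + 10) was tested with limma 3.58.1 in R 4.3.3 for the 22830 probe sets whose signal averaged 20 or more, as 1 model of the 3 groups with a variance trend, and p-values were adjusted by Benjamini-Hochberg over all of them. The offset understates differences of dim probe sets. Genes were named from the platform annotation (34945 probe sets with 1 symbol, 932 with several, 9160 unnamed here), with 34754 symbols updated through a RefSeq table of GRCm38.p6. A gene was read by its brightest probe set, using cross-hybridising ones (x_at) only where there was no other. Of the members, 5 were read by probe sets that may match several transcripts (s_at).

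The members and lists were chosen with earlier results of these data known. Values in every mouse were given for up to 4 called members per class by the largest difference, plus the member of each class with the least difference, and for Cox17 and Uqcr10, which were added after their values were seen. From each other list the called genes of largest rise and fall were eligible. Alternatives were offsets of 0 and 32, no filter, a filter of 50, quantile normalization, robust variance, only the groups compared, a replicate block, each mouse left out, the next brightest probe set, and the methods' t-test with a 1.5-fold limit or adjusted; a filter of 1000 and the grouping by signal level were added after seeing the data. The statistics were tested on simulated data. The number of arrays limits precision. Plots used Python 3.11.15 and matplotlib 3.10.9.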

Additional observations from a re-analysis of the deposited data

Results flagged for a closer look

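Signals of single members and class means were examined in 117 sets of 4 mice, and in 6 of these, all signals of single members, the highest or lowest value stood apart from the other 3 by more than Dixon's 95% limit, where chance marks about 1 in 20 groups. Cox19 read 542 in MCD+HF+Met mouse 4, where the others of its group read 720 to 747. Mouse 4 of the same group was also apart for Uqcrc2 (1677, others 1422 to 1446) and for Uqcr10 (2204, others 1894 to 1918), in both cases as the highest. Among NC livers, mouse 2 was apart for Uqcrh (3208, others 2939 to 2977) and Cox11 (279, others 247 to 252), and mouse 4 for Uqcrq (3924, others 3162 to 3258). Members measured in the same mouse share 1 array.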

How the results depend on the processing

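Of 48 calls of single members, 841 alternatives were run; 767 kept the call, 55 lost it in the same direction and 19 reversed the sign. Both offsets, the stricter filter, robust variance, the replicate block and a fit of the compared groups alone changed none of the 48. Quantile normalization reversed 14 and lost 12. Under it the diet gave 4 members higher and 10 lower with a median of -0.12, and MCD+HF+Met against NC gave 7 higher and 6 lower with a median of 0.02. Its reversed diet differences were Uqcrb 0.03, Cycs 0.01, Cox4i1 0.06, Cox6a1 0.00, Cox6b1 0.05 and Cox7a2 0.15, and those of MCD+HF+Met against NC were Uqcrfs1 0.02, Uqcrb 0.13, Cyc1 0.05, Cox4i1 0.11, Cox5a 0.02, Cox6a1 0.10, Cox6b1 0.15 and Cox6c 0.02. Quantile normalization removes by construction any difference between arrays in the overall distribution of signals; whether that difference was technical was not tested.

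The next brightest probe set, which 19 members had, gave for the diet 0 higher and 7 lower with a median of -0.20, for metformin 1 higher, and for MCD+HF+Met against NC 0 higher and 5 lower with a median of -0.16. It reversed the diet differences of Uqcrq (0.04) and Cox6c (0.05) and, in MCD+HF+Met against NC, Sdhd (0.02), Uqcrq (0.02) and Cox6a1 (0.00); the cause was not tested. The methods' t-test with an unadjusted p under 0.05 and a 1.5-fold limit gave 0 higher and 9 lower for the diet, 0 higher for metformin, and 0 higher and 4 lower for MCD+HF+Met against NC. For these counts, and those of the next brightest probe set or with 1 mouse left out, no share of all genes is given here. After adjustment the t-test called 0 members higher with metformin, with Cox19 at an adjusted p of 0.112 and Cyc1 at 0.128. It then called 2 of all 11099 genes higher and 3 lower. The stricter filter gave 5 higher in MCD+HF+Met against NC, adding Cox8a and Cox15, beside 27.7% of all genes. With metformin it gave 3 higher, adding Cox5a, beside 2.44% of all genes. The filter of 1000 gave 0 higher for the diet, as Cox17 was below it, and 20 of 23 members lower. Of the 943 genes that passed this filter, 18% were called higher and 53.8% lower. Leaving out 1 mouse gave 1 to 2 members higher with metformin and 2 to 5 higher in MCD+HF+Met against NC, with 5 without MCD+HF+Met mouse 3.

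Replicate numbers did not pair the mice (correlations of deviations -0.134 to 0.251 for equal numbers and -0.214 to 0.132 for others). With the replicate block the diet gave 1 higher and 24 lower, beside 27.1% and 20.6% of all genes. Metformin gave 2 higher and 0 lower, beside 1.44% and 2.1%, and MCD+HF+Met against NC 4 higher and 19 lower, beside 25.3% and 18.4%.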
